A study of Mus musculus with 7 samples.

Results

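The endothelial and angiogenesis genes are 40 genes that mark the cells lining blood and lymphatic vessels or that carry the signals by which vessels sprout, mature and branch. They were chosen by gene symbol among the 23282 rows of each deposited table, with earlier results of these data known. They fall into 7 ligands, 8 receptors, 12 genes of vascular endothelial identity, 5 transcription factors, 5 arterial and Notch genes and 3 lymphatic genes. Uterine tissue of C57BL/6 female mice, 6 weeks old, was profiled by QuantSeq, an RNA sequencing method that tags each transcript near its polyadenylated 3′ end. Recombinant human CXCL12, a chemokine secreted by the embryo, was put into a uterine horn at 100 ng in 30 µl of saline, and the other horn received saline alone. The libraries comprise 2 saline-treated, 2 CXCL12 Day 3 and 3 CXCL12 Day 8 samples. No day is labelled for saline, so each CXCL12 group was compared with the same 2 libraries, and the labels do not tell which libraries come from horns of the same animal or whether replicates are separate animals. P-values therefore measure the spread between these libraries, which may be technical. Whole uterine tissue was used, in which fewer endothelial cells and less RNA per endothelial cell cannot be told apart.

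Vessel growth in adult tissue is driven by the VEGF family. VEGFA signals through VEGFR2, encoded by Kdr, while VEGFR1, encoded by Flt1, binds VEGFA tightly and limits what reaches VEGFR2. VEGFC acts through VEGFR3, encoded by Flt4, mainly on lymphatic vessels, and the neuropilins serve as co-receptors. Angiopoietin 1 stabilises vessels through the receptor TIE2, encoded by Tek, and angiopoietin 2 is released by endothelium under remodelling and modulates the same receptor. The Notch ligand DLL4 is displayed by sprouting tip cells and arterial endothelium and restrains sprouting in the neighbouring cells. The endometrium is among the few adult tissues in which vessels grow and regress with every cycle. The study made these libraries to find changes of gene expression after CXCL12 infusion. It examined vessel growth in the uterus by staining and RT-PCR. Here the vascular genes are read from the libraries.

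All 40 genes were detected and passed the filters on low values in every comparison. Library totals ranged from 6908790 to 12308982 reads, and levels are given below as CPM, reads scaled to a common library size with TMM factors, for which 3 reads correspond to 0.244 to 0.434 CPM. Reads of single genes ran from 2, for Gja5 and Prox1 in Day 8 replicate 1, to 6158, for Cd34 in Day 8 replicate 2, so Prox1, Gja5 and Sox18 rest on few reads. Day 3 replicate 1 was deposited as log2 of normalized counts, and its reads and CPM were estimated by undoing the transformation. The library labelled Day 8 replicate 1 has Day 3 in the name of its table and stood apart from the other Day 8 libraries. Across 15411 genes, its log2 values had a Pearson's r of 0.947 with either Day 3 library and of 0.944 with saline replicate 2. Its r was 0.897 with saline replicate 1, and 0.900 and 0.899 with Day 8 replicates 2 and 3. Those Day 8 libraries had an r of 0.935 with each other. Day 8 replicate 1 was kept in the group its label gives, and fold changes that involve Day 8 are also given without it where they differ.

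Endothelial markers were present in every library. The 12 identity genes summed to 748 and 627 CPM in the saline-treated libraries, 875 and 879 CPM at Day 3, and 684, 1011 and 1111 CPM at Day 8. Another 20 endothelial markers that are no members, such as Cldn5 and Sox17, summed to 815 and 580 CPM, 642 and 722 CPM, and 630, 1026 and 1113 CPM in the same order. Both sums were higher in Day 8 replicates 2 and 3 than in the other 5 libraries. Cd34 alone made up the largest part of the first sum, with 399 and 361 CPM in saline, 569 and 532 CPM at Day 3, and 409, 515 and 602 CPM at Day 8. In the mean log2 CPM of the 12 genes, both Day 3 libraries, at 4.83 and 4.95, lay between the saline-treated ones, at 5.06 and 4.57. Day 8 replicate 1 had the lowest level of the 3 Day 8 libraries in 36 of the 40 genes (90.0%), against 41.2% of all genes, with Sox7, Vegfa, Vegfb and Eng as the exceptions. It was the lowest of all 7 libraries in 20 of the 40 genes, against 16.7% of all genes. Day 8 replicates 2 and 3 lay above the other 5 libraries in 19 genes (47.5%), against 12.5% of all genes.

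**Figure D1:**
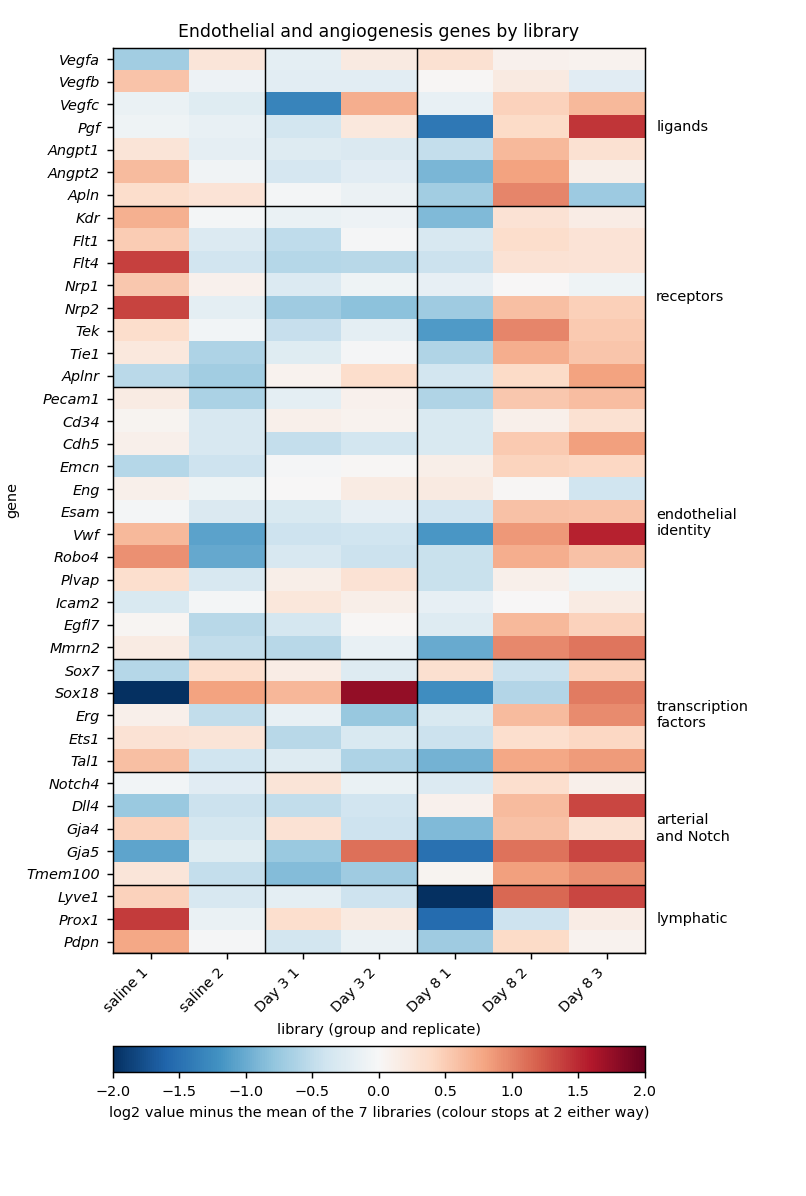
Log2 values of the 40 genes in the 7 libraries, each centred on the gene's mean over the libraries; rows are genes grouped by role, columns are libraries, red is above and blue below the mean. Day 8 replicates 2 and 3 are red in most rows, Day 8 replicate 1 is blue in most rows, and saline replicate 1 is red for Flt4, Nrp2 and Prox1.

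A gene was called when it differed at least 2-fold with an unadjusted P under 0.05. At Day 8 against saline, tested by edgeR's quasi-likelihood test, 1 of the 40 genes was called, Dll4, which was higher, where 2.94% of all 15388 tested genes were called, 1.53% higher and 1.42% lower. At Day 3 against saline, tested by limma on quantile-normalized log2 values, 1 gene was called, Nrp2, which was lower, where 4.61% of 15411 genes were called, 1.99% higher and 2.62% lower. Between Day 8 and Day 3, also by limma, 2 genes were called, Tmem100 and Dll4, both higher at Day 8, where 4.71% of all genes were called, 2.31% higher and 2.40% lower. These shares of members lie near those of all genes. With Benjamini-Hochberg adjustment, none of these 3 fits by edgeR and limma gave any gene an adjusted p under 0.1, while 658, 1131 and 1093 genes had an unadjusted P under 0.05 at Day 8 against saline, Day 3 against saline and Day 8 against Day 3. DESeq2 gave 49 genes an adjusted p under 0.1 at Day 8 against saline, none of them among the 40. Without Day 8 replicate 1, edgeR gave 15 genes an adjusted p under 0.1 at Day 8 against saline, none among the 40, and limma gave 475 at Day 8 against Day 3, with 3 among the 40. Called without this library were 5 of the 40 genes at Day 8 against saline (Aplnr, Dll4, Lyve1, Mmrn2 and Tmem100), where 6.69% of all genes were called. Against Day 3, 10 were called (Cdh5, Dll4, Erg, Lyve1, Mmrn2, Nrp2, Tal1, Tek, Tmem100 and Vwf), where 11.2% of all genes were called.

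The log2 fold changes had medians of opposite sign at the 2 days, smaller in size than the spread between replicate libraries. The median of the 40 genes was 0.21 at Day 8 against saline, with 27 above 0, where all tested genes had a median of -0.01. At Day 3 against saline the median was -0.19, with 16 above 0, where all genes had a median of 0.02. These 2 comparisons share the saline-treated libraries. Between Day 8 and Day 3 the median was 0.30, with 31 of the 40 above 0, where the median of all genes was 0.00. Each of these medians of the 40 genes is smaller in size than the pooled SD between replicates, 0.41. That SD is of the median centred log2 value of the 40 genes in each library, which ran from -0.44 to 0.50 within Day 8. Without Day 8 replicate 1 the medians were 0.47 against saline and 0.73 against Day 3, and without saline replicate 1 the median at Day 3 was 0.03.

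All Day 8 libraries lay above both saline-treated libraries for Cd34, Aplnr, Dll4 and Emcn (4 of 40, against 9.74% of all genes) and below them for Prox1 and Nrp1 (2 of 40, against 9.42%). Both Day 3 libraries lay above the saline-treated libraries for Cd34, Icam2, Aplnr and Emcn (4 of 40, against 24.2%) and below them for 13 genes (32.5%, against 21.9%), among them the receptors Nrp2, Flt4, Tek, Kdr and Nrp1. Aplnr and Emcn were above saline in all 5 CXCL12 libraries on both scales used. Cd34 was so in CPM only, since on the quantile-normalized log2 scale Day 8 replicate 1 had 12.04 and saline replicate 1 had 12.41.

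**Figure D2:**
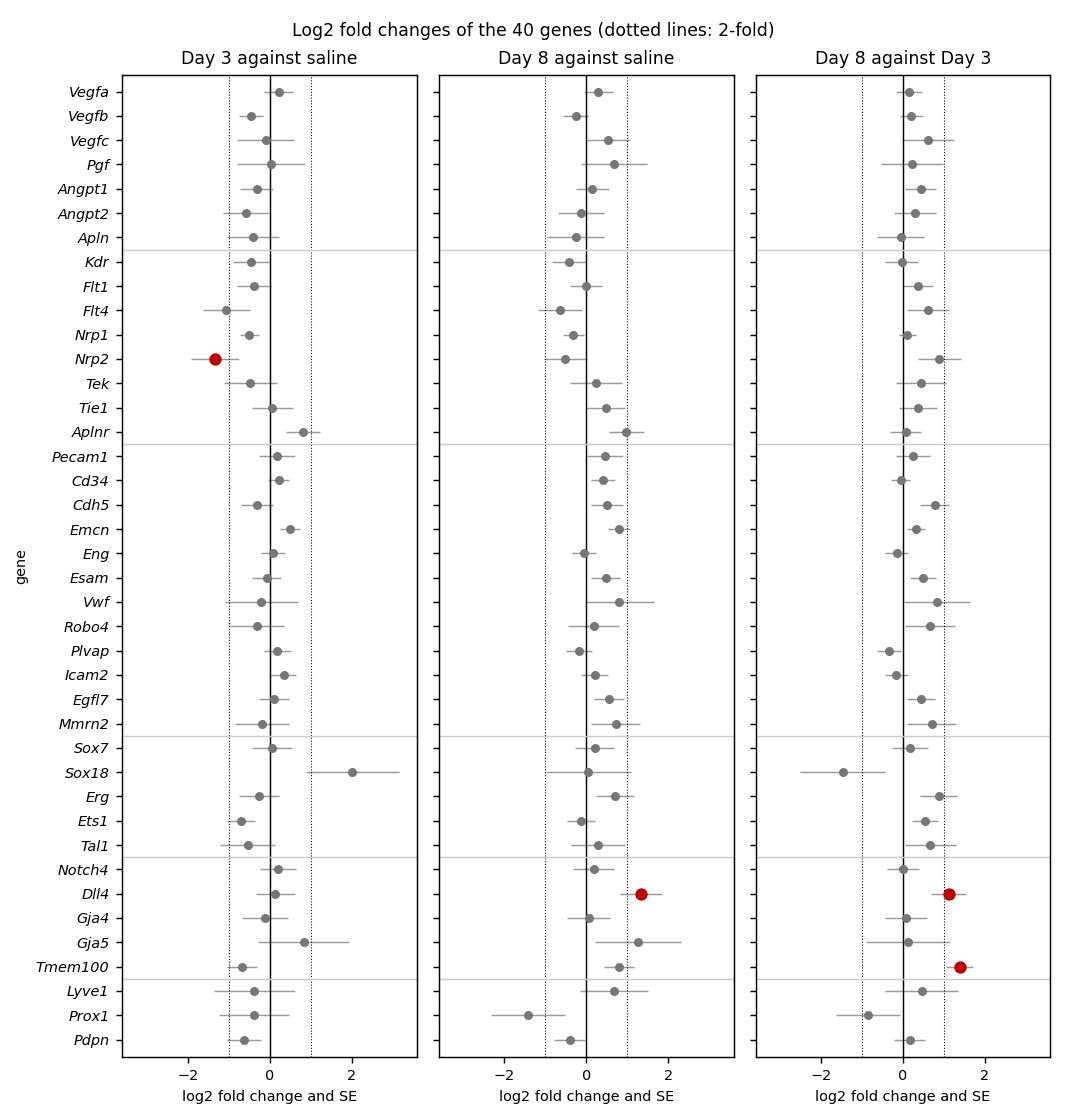
Log2 fold change (point) and standard error (line) of the 40 genes in the 3 comparisons, ordered by role; dotted lines mark 2-fold. The called genes, in red, are Nrp2 at Day 3 against saline, Dll4 at Day 8 against saline, and Dll4 and Tmem100 at Day 8 against Day 3.

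Among the ligands, no gene was called in any comparison. Vegfa, the main growth factor of blood vessels, had 21.9 and 43.1 CPM in the saline-treated libraries, 32.0 and 42.1 CPM at Day 3, and 44.2, 38.7 and 38.2 CPM at Day 8. The saline-treated libraries differed more from each other than any CXCL12 libraries did, and every group overlapped the others. Its log2 fold change was 0.29 ± 0.35 (SE) at Day 8 (adjusted p = 0.96, edgeR) and 0.22 ± 0.35 at Day 3 (adjusted p = 0.83, limma), and without saline replicate 1 these were -0.11 and -0.25. The Day 8 value was 0.22 without Day 8 replicate 1. Vegfb, a VEGFR1 ligand, ranged from 31.3 to 46.8 CPM in saline, 28.3 to 28.4 CPM at Day 3 and 28.3 to 37.5 CPM at Day 8. Vegfc, the lymphatic growth factor, stayed between 1.03 and 4.87 CPM, with both of these extremes in CXCL12 libraries. Pgf, placental growth factor, had 3.99 and 3.92 CPM in saline, 2.98 and 4.58 CPM at Day 3, and 1.40, 5.94 and 11.8 CPM at Day 8, so the Day 8 libraries held both the lowest and the highest value. Apln, the ligand of the receptor encoded by Aplnr, had 4.59 CPM in each saline-treated library, 3.29 and 3.12 CPM at Day 3, and 1.98, 7.61 and 2.07 CPM at Day 8.

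The angiopoietins were spread by the Day 8 libraries. Angpt1 had 21.3 and 16.4 CPM in saline, 14.7 and 14.6 CPM at Day 3, and 12.8, 28.4 and 22.5 CPM at Day 8. Angpt2 had 12.9 and 8.52 CPM in saline, 6.48 and 7.18 CPM at Day 3, and 4.30, 15.8 and 9.63 CPM at Day 8. For both genes the Day 3 libraries lay below the saline-treated ones, and the Day 8 group held the lowest and the highest library of all. Angpt1 had a Day 8 log2 fold change of 0.15 ± 0.40 (adjusted p = 0.97, edgeR) and Angpt2 one of -0.13 ± 0.55 (adjusted p = 0.98, edgeR). At Day 3 it was -0.32 ± 0.40 for Angpt1 (adjusted p = 0.79, limma) and -0.57 ± 0.56 for Angpt2 (adjusted p = 0.73, limma). Without Day 8 replicate 1 the Day 8 values were 0.41 for Angpt1 and 0.22 for Angpt2. The ratio of Angpt2 to Angpt1 reads was 0.608 and 0.520 in saline, 0.441 and 0.493 at Day 3, and 0.336, 0.556 and 0.429 at Day 8, with overlap between saline and Day 8.

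Among the 8 receptors the log2 fold changes against saline centred on a median of -0.16 at Day 8 and on -0.46 at Day 3. Kdr, encoding VEGFR2, had 60.9 and 38.2 CPM in saline, 36.3 and 37.2 CPM at Day 3, and 20.8, 48.0 and 43.7 CPM at Day 8. Its log2 fold change was -0.42 ± 0.42 at Day 8 (adjusted p = 0.96, edgeR) and -0.45 ± 0.44 at Day 3 (adjusted p = 0.73, limma). Leaving out saline replicate 1 brought it to -0.05 at Day 8 and -0.07 at Day 3, and leaving out Day 8 replicate 1 brought it to -0.14 at Day 8. Flt1, encoding VEGFR1, had 17.0 and 10.5 CPM in saline, 8.33 and 12.1 CPM at Day 3, and 9.77, 16.6 and 15.3 CPM at Day 8. The groups of Flt1 overlapped in each pair, and its log2 fold change was -0.01 ± 0.39 at Day 8 (adjusted p = 1, edgeR), 0.19 without Day 8 replicate 1, and -0.38 ± 0.41 at Day 3 (adjusted p = 0.75, limma).

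Flt4 and Nrp2, encoding VEGFR3 and its co-receptor neuropilin 2, shared a pattern set largely by saline replicate 1. Nrp2 had 74.3 and 27.7 CPM in saline, 18.7 and 17.4 CPM at Day 3, and 18.5, 47.2 and 43.4 CPM at Day 8. Both Day 3 libraries were below both saline-treated libraries, and the saline-treated libraries were far apart. The Day 3 mean was 18.0 ± 0.946 CPM (SD, n = 2) against 51.0 ± 32.9 CPM (SD, n = 2) in saline, a log2 fold change of -1.34 ± 0.58 (adjusted p = 0.63, limma). Without saline replicate 1 it was -0.57, and Nrp2 was no longer called; without saline replicate 2 it was -2.13. The call was also lost when either Day 3 library was left out. Flt4 had 27.4 and 8.52 CPM in saline, 6.89 and 7.08 CPM at Day 3, and 7.79, 13.7 and 13.5 CPM at Day 8. Its log2 fold change at Day 3 was -1.06 ± 0.57 (adjusted p = 0.63, limma), and -0.19 without saline replicate 1. At Day 8 the 2 genes had log2 fold changes of -0.64 ± 0.53 for Flt4 and -0.51 ± 0.53 for Nrp2 (adjusted p = 0.96 for each, edgeR), which became 0.43 and 0.37 without saline replicate 1 and -0.42 and -0.20 without Day 8 replicate 1. Against Day 3, Nrp2 at Day 8 was at 0.89 ± 0.53 (adjusted p = 0.73, limma) and at 1.30 without Day 8 replicate 1, where it was called.

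Nrp1, encoding the VEGFA co-receptor neuropilin 1, had 222 and 182 CPM in saline, 158 and 176 CPM at Day 3, and 156, 172 and 163 CPM at Day 8, so all 5 CXCL12 libraries were below both saline-treated libraries. Tek, encoding TIE2, had 9.06 and 7.37 CPM in saline, 5.14 and 6.35 CPM at Day 3, and 3.02, 15.3 and 11.0 CPM at Day 8. Tie1, encoding the orphan receptor that pairs with TIE2, had 17.4 and 10.3 CPM, 12.8 and 14.9 CPM, and 9.88, 25.7 and 22.9 CPM in the same order. Both TIE receptors were highest in Day 8 replicates 2 and 3 and lowest in Day 8 replicate 1. Their log2 fold changes at Day 8 were 0.23 ± 0.63 for Tek (adjusted p = 0.97, edgeR) and 0.47 ± 0.48 for Tie1 (adjusted p = 0.96, edgeR), and at Day 3 -0.47 ± 0.65 for Tek (adjusted p = 0.81, limma) and 0.06 ± 0.50 for Tie1 (adjusted p = 0.97, limma). At Day 8, that of Tek was -0.03 by limma and 0.65 by edgeR without Day 8 replicate 1. That of Tie1 was 0.78 without Day 8 replicate 1, and ran from 0.14 to 0.89 without saline replicate 2 or 1. Between Day 8 and Day 3 they were 0.44 ± 0.60 for Tek (adjusted p = 0.87, limma) and 0.36 ± 0.46 for Tie1 (adjusted p = 0.86, limma), and 1.06 and 0.77 without Day 8 replicate 1.

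Aplnr encodes the apelin receptor of sprouting and venous endothelium. It had 8.94 and 8.61 CPM in saline, 13.9 and 17.2 CPM at Day 3, and 10.3, 18.2 and 24.2 CPM at Day 8, so all 5 CXCL12 libraries were above both saline-treated libraries. The log2 fold change was 0.98 ± 0.42 at Day 8 (adjusted p = 0.96, edgeR) and 0.82 ± 0.41 at Day 3 (adjusted p = 0.63, limma). It was not called at either day. Without Day 8 replicate 1 it was called at Day 8, at 1.25 by edgeR.

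**Figure D3:**
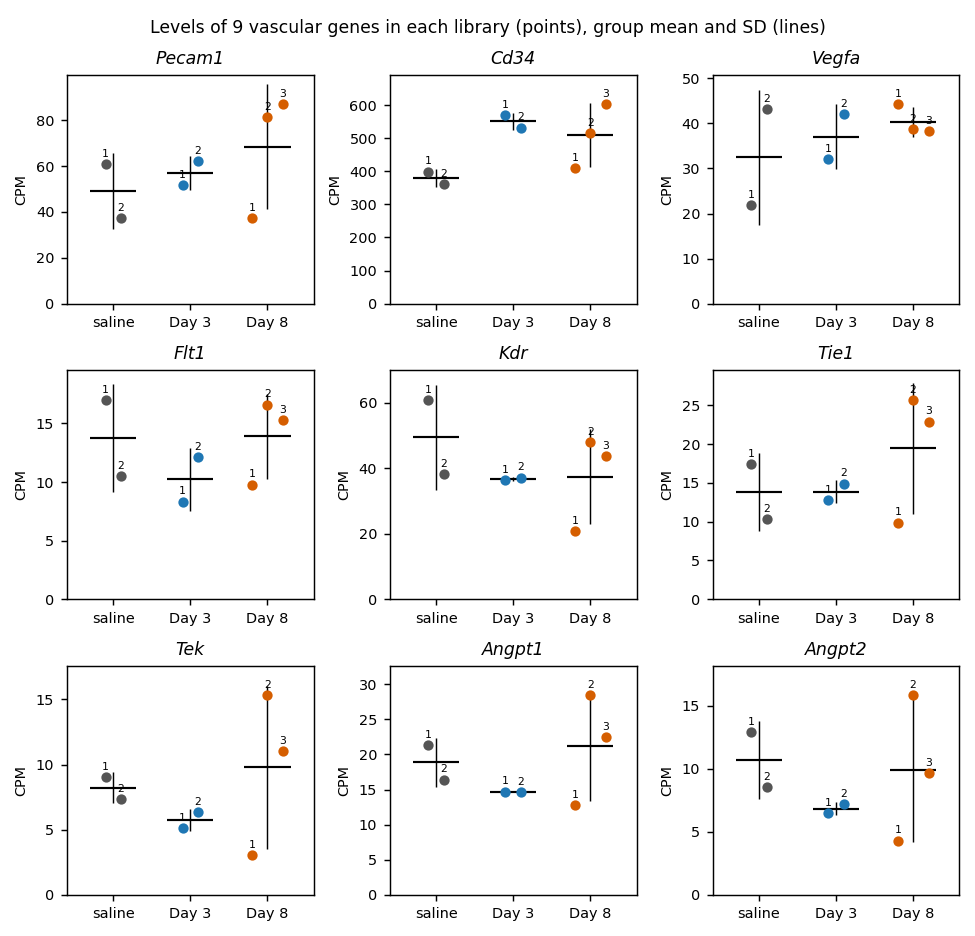
Levels in CPM, by group, of the angiogenesis markers that the study names for other assays. Points are libraries with their replicate numbers, horizontal lines are group means and vertical lines SD (n = 2, 2 and 3). Groups overlap in every panel except Cd34, where all CXCL12 libraries lie above saline in CPM, and Kdr, Tek, Angpt1 and Angpt2, where both Day 3 libraries lie below saline.

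For the 12 vascular identity genes the log2 fold changes against saline centred on a median of 0.46 at Day 8, with 10 of 12 above 0, and on 0.09 at Day 3, and none was called. Pecam1, encoding CD31 of endothelial junctions, had 61.0 and 37.3 CPM in saline, 51.7 and 62.3 CPM at Day 3, and 37.2, 81.3 and 86.9 CPM at Day 8. Day 8 replicates 2 and 3 exceeded every other library, and Day 8 replicate 1 lay level with the lowest saline-treated library. The mean was 68.5 ± 27.2 CPM (SD, n = 3) at Day 8 and 49.2 ± 16.8 CPM (SD, n = 2) in saline, a log2 fold change of 0.46 ± 0.44 (adjusted p = 0.96, edgeR). It was 0.75 without Day 8 replicate 1, 0.15 without saline replicate 2 and 0.86 without saline replicate 1. At Day 3 it was 0.18 ± 0.45 (adjusted p = 0.9, limma). Cd34, encoding a sialomucin of capillary endothelium and progenitors, had 399 and 361 CPM in saline, 569 and 532 CPM at Day 3, and 409, 515 and 602 CPM at Day 8. None of the CXCL12 libraries overlapped saline in CPM, although Day 8 replicate 1 exceeded saline replicate 1 by little. The log2 fold change of Cd34 was 0.40 ± 0.29 at Day 8 (adjusted p = 0.96, edgeR) and 0.22 ± 0.26 at Day 3 (adjusted p = 0.78, limma). At Day 8 it was 0.53 without Day 8 replicate 1, and 0.16 by limma on the quantile-normalized scale.

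Emcn, encoding endomucin of veins and capillaries, is named at Day 8 after its values were seen. It had 29.2 and 33.8 CPM in saline, 45.3 and 46.3 CPM at Day 3, and 48.1, 59.5 and 59.8 CPM at Day 8. The 3 groups lay in this order with no overlap. The mean was 31.5 ± 3.21 CPM (SD, n = 2) in saline, 45.8 ± 0.751 CPM (SD, n = 2) at Day 3 and 55.8 ± 6.63 CPM (SD, n = 3) at Day 8. Its log2 fold change was 0.80 ± 0.27 at Day 8 (adjusted p = 0.96, edgeR), under the 2-fold limit, and 0.50 ± 0.24 at Day 3 (adjusted p = 0.63, limma). Leaving out each library in turn gave 0.70 to 0.91 at Day 8.

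Cdh5, encoding VE-cadherin, had 33.8 and 26.6 CPM in saline, 23.2 and 25.4 CPM at Day 3, and 26.3, 47.0 and 57.9 CPM at Day 8. Esam and Egfl7, an endothelial adhesion molecule and a secreted vessel organiser, had Day 8 means of 82.7 and 54.3 CPM against 58.8 and 36.5 CPM in saline, and Mmrn2, an endothelial matrix protein, had 39.0 against 23.3 CPM. In these 4 genes Day 8 replicates 2 and 3 were above every other library and Day 8 replicate 1 was not. Vwf, encoding von Willebrand factor of platelet adhesion, varied widely, with 9.67 and 3.16 CPM in saline, 4.53 and 4.58 CPM at Day 3, and 2.56, 12.3 and 19.2 CPM at Day 8, and a log2 fold change at Day 8 of 0.81 ± 0.84 (adjusted p = 0.96, edgeR), or 1.28 without Day 8 replicate 1. Robo4, an endothelial guidance receptor, showed the same spread within groups, with 15.1 and 4.21 CPM in saline. In Cd34, Eng, Robo4, Plvap and Icam2, Day 8 replicates 2 and 3 did not both exceed the other 5 libraries. Eng, encoding the TGF-beta co-receptor endoglin, ranged from 16.4 to 23.6 CPM over all 7 libraries. Plvap, a protein of fenestrated capillaries, ranged from 22.1 to 37.9 CPM, and both Day 3 libraries exceeded all Day 8 libraries. Icam2, encoding an adhesion molecule of endothelial junctions, ranged from 8.70 to 13.1 CPM with both Day 3 libraries above both saline-treated libraries, and its log2 fold change at Day 3 was 0.34 ± 0.31 (adjusted p = 0.71, limma). Among those of the 40 genes with a mean of at least 3 CPM, the 3 most negative log2 fold changes of Day 8 against Day 3 were -0.34 ± 0.29 for Plvap (adjusted p = 0.79, limma), -0.16 ± 0.29 for Icam2 (adjusted p = 0.9, limma) and -0.15 ± 0.28 for Eng (adjusted p = 0.9, limma), none of them called. These were -0.19, -0.08 and -0.27 without Day 8 replicate 1.

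Of the other markers that the study names for further assays, none was called between Day 8 and Day 3. The log2 fold change was 0.24 ± 0.42 for Pecam1 (adjusted p = 0.9, limma), 0.37 ± 0.37 for Flt1 (adjusted p = 0.83, limma), 0.43 ± 0.37 for Angpt1 (adjusted p = 0.79, limma) and 0.29 ± 0.51 for Angpt2 (adjusted p = 0.9, limma). It was -0.06 ± 0.24 for Cd34 (adjusted p = 0.95, limma), -0.03 ± 0.40 for Kdr (adjusted p = 0.99, limma) and 0.15 ± 0.32 for Vegfa (adjusted p = 0.92, limma). When Day 8 replicate 1 was left out these were 0.63, 0.58, 0.74 and 0.74 for Pecam1, Flt1, Angpt1 and Angpt2, and 0.11, 0.34 and 0.08 for Cd34, Kdr and Vegfa, with none called.

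Among the transcription factors, Erg, which maintains endothelial identity, had 11.6 and 8.23 CPM in saline, 9.87 and 6.45 CPM at Day 3, and 8.84, 18.1 and 22.1 CPM at Day 8. Ets1, an ETS factor of activated endothelium, had 28.9 and 29.4 CPM in saline, 16.1 and 19.6 CPM at Day 3, and 17.7, 31.1 and 32.7 CPM at Day 8. Both Day 3 libraries of Ets1 and Day 8 replicate 1 were below every other library. Its log2 fold change at Day 3 was -0.70 ± 0.35 (adjusted p = 0.63, limma). Tal1, a factor of blood and endothelial precursors, ranged from 2.44 to 9.84 CPM with the extremes both at Day 8. Sox7 and Sox18, SOX factors of developing vessels, did not separate the groups, and Sox18 had 3, 37, 28, 62, 6, 18 and 39 reads in the libraries in the order saline, Day 3 and Day 8.

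The arterial and Notch genes held the genes called higher at Day 8, Dll4 against both saline and Day 3, and Tmem100 against Day 3 only. Dll4 had 3.50 and 4.50 CPM in saline, 3.81 and 4.16 CPM at Day 3, and 5.93, 9.70 and 15.1 CPM at Day 8, from 29 to 47 reads in saline and Day 3 libraries and 51 to 146 reads at Day 8. All Day 8 libraries were above the 4 others, and saline and Day 3 lay together. The mean was 10.3 ± 4.62 CPM (SD, n = 3) at Day 8 and 4.00 ± 0.703 CPM (SD, n = 2) in saline, a log2 fold change of 1.33 ± 0.51 (adjusted p = 0.96, edgeR). Against Day 3 it was 1.12 ± 0.43 (adjusted p = 0.7, limma), and this call was kept in 6 of 11 alternatives, being lost under the replicate block and without any 1 library other than Day 8 replicate 1, with values down to 0.80. The call against saline was kept in 8 of 9 other settings and lost when either saline library, Day 8 replicate 2 or Day 8 replicate 3 was left out, with log2 fold changes from 0.94 to 1.60 without single libraries. Dll4 lies at chr2:119325784-119335962 on the plus strand of GRCm38.

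Tmem100, encoding a membrane protein of arterial endothelium that depends on BMP signalling, had 113 and 75.2 CPM in saline, 58.9 and 65.6 CPM at Day 3, and 110, 184 and 203 CPM at Day 8. The Day 3 libraries were the lowest and the Day 8 libraries lay above them without overlap, while Day 8 replicate 1 fell between the saline-treated libraries. The mean was 166 ± 49.1 CPM (SD, n = 3) at Day 8 and 62.2 ± 4.69 CPM (SD, n = 2) at Day 3, a log2 fold change of 1.39 ± 0.33 (adjusted p = 0.66, limma). It was called in all 11 alternatives of this comparison, from 1.22 with the replicate number as a block to 1.66 without Day 8 replicate 1. Tmem100 lies at chr11:90030348-90036508 on the plus strand of GRCm38. Notch4, an endothelial Notch receptor, stayed between 2.91 and 5.35 CPM. Gja4, encoding connexin 37, ranged from 5.70 to 17.3 CPM with both extremes at Day 8, and Gja5, encoding connexin 40, had at most 28 reads in a library.

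**Figure D4:**
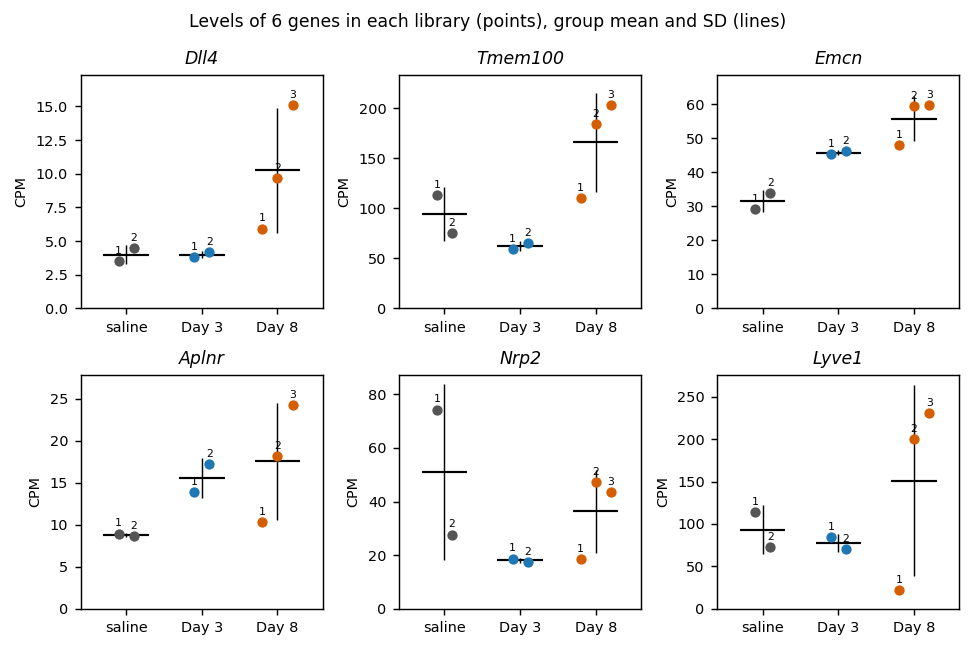
Levels of Dll4, Tmem100, Emcn, Aplnr, Nrp2 and Lyve1 in CPM by group; points are libraries with their replicate numbers, horizontal lines are group means and vertical lines SD (n = 2, 2 and 3). All Day 8 libraries of Dll4 and Emcn lie above the other groups, and Lyve1 ranges from 22.2 to 231 CPM within Day 8.

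The lymphatic genes varied widely at Day 8. Lyve1, a hyaluronan receptor of lymphatic endothelium and of some macrophages, had 114 and 72.9 CPM in saline, 84.7 and 69.9 CPM at Day 3, and 22.2, 200 and 231 CPM at Day 8. Day 8 replicate 1 had the lowest and Day 8 replicates 2 and 3 the highest levels of all libraries. Prox1, the transcription factor that specifies lymphatic endothelium, had 22 and 10 reads in saline, 11 and 9 reads at Day 3, and 2, 10 and 9 reads at Day 8. Pdpn, encoding podoplanin, which mesothelium and stroma also make, had 115 and 72.6 CPM in saline, 58.8 and 69.2 CPM at Day 3, and 44.6, 93.2 and 77.6 CPM at Day 8. The 3 genes thus did not move together. Lyve1 was high where Prox1 was not, and the ratio of Lyve1 to Prox1 reads was 42.9 and 76.2 in saline, 74.9 and 74.7 at Day 3, and 95.5, 239 and 248 at Day 8. Mesothelial markers summed to 107 CPM in each saline-treated library, 73.6 and 84.9 CPM at Day 3, and 62.7, 153 and 173 CPM at Day 8. Leukocyte markers summed to 356 and 445 CPM, 192 and 156 CPM, and 135, 307 and 348 CPM, with the T- and B-cell markers Cd3e and Cd79a at 3 reads or fewer in every library. The part of either cell type in the Lyve1 and Pdpn levels was not tested.

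To set the genes against the amount of endothelial RNA, each of the 28 other genes was read relative to the mean log2 CPM of the 12 identity genes. This mean was 5.06 and 4.57 in saline, 4.83 and 4.95 at Day 3, and 4.59, 5.48 and 5.53 at Day 8. Relative to it, all Day 8 libraries lay below both saline-treated libraries for 9 genes, namely Angpt2, Kdr, Flt1, Flt4, Nrp1, Nrp2, Ets1, Prox1 and Pdpn (32.1%, against 16.4% of all genes). They lay above for 4 genes, namely Aplnr, Erg, Dll4 and Tmem100 (14.3%, against 1.90%). At Day 3, 16 genes lay below (57.1%, against 29.8%) and only Aplnr lay above (3.57%, against 10.2%). This scale was chosen with the values in view, and the counts carry no test.

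On this scale Tmem100 varied less within each group than in CPM, and Kdr varied less in saline and at Day 8. The log2 difference of Kdr from the identity mean was 0.87 and 0.69 in saline, 0.36 and 0.27 at Day 3, and -0.20, 0.11 and -0.08 at Day 8. The 3 groups did not overlap, and Day 8 replicate 1 lay with its group. Tmem100 was at 1.75 and 1.67 in saline, 1.05 and 1.09 at Day 3, and 2.20, 2.05 and 2.14 at Day 8, again with no overlap between any groups. Ets1 was at -0.21 and 0.31 in saline, -0.81 and -0.65 at Day 3, and -0.44, -0.51 and -0.49 at Day 8. The ratio of Kdr to Pecam1 reads was 0.998 and 1.02 in saline, 0.702 and 0.596 at Day 3, and 0.559, 0.591 and 0.503 at Day 8, and that of Kdr to Cdh5 was 1.80 and 1.44, 1.56 and 1.46, and 0.792, 1.02 and 0.755. Of the 8 ratios computed, chosen after the levels were seen, these 2 had all Day 8 libraries below saline. The ratios of Flt1 to Kdr, Dll4 to Cdh5 and Lyve1 to Prox1 had all Day 8 libraries above saline. That of Lyve1 to Prox1 rests on only 2 Prox1 reads in Day 8 replicate 1. The ratio of Vegfa to Kdr overlapped between the groups, with 0.359 and 1.13 in saline and 0.807 to 2.12 at Day 8.

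**Figure D5:**
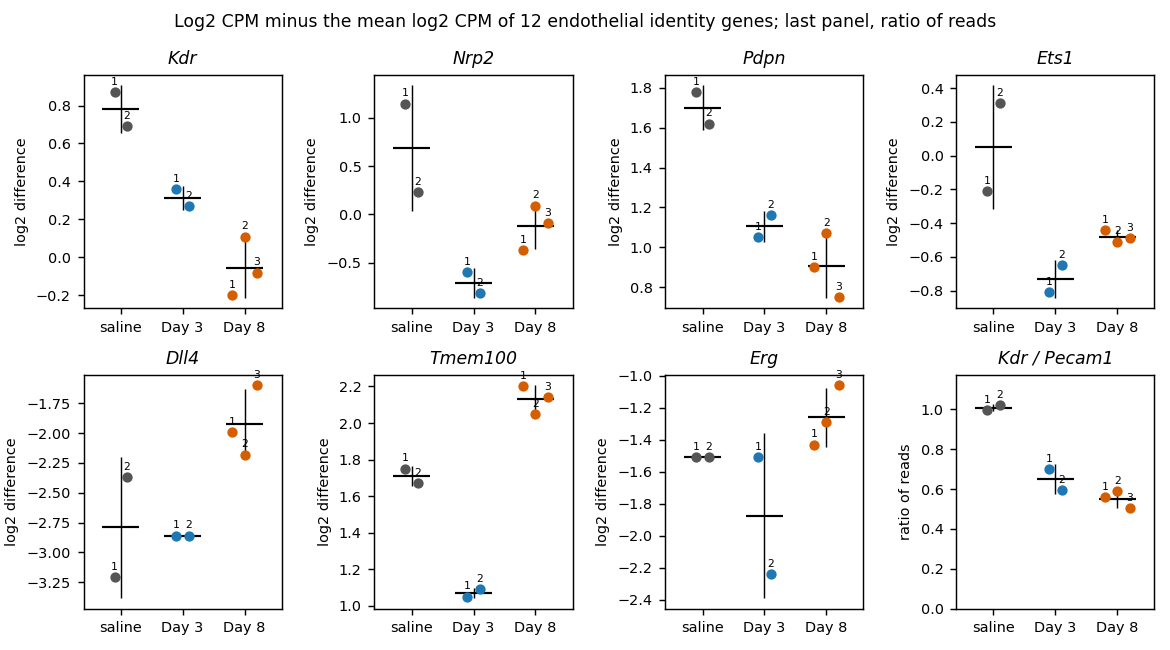
Log2 CPM minus the mean log2 CPM of the 12 identity genes for 7 genes, and the ratio of Kdr to Pecam1 reads in the last panel; points are libraries with their replicate numbers, horizontal lines are group means and vertical lines SD. Kdr and Pdpn at Day 8 lie below both saline-treated libraries, Dll4, Tmem100 and Erg above them, and the ratio of Kdr to Pecam1 is near 1 in saline and at most 0.702 in the CXCL12 libraries.

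Promoters are shown for Dll4, Emcn, Nrp2 and Kdr, as 250 bases before to 50 bases after the start of transcription. Of these genes, Dll4 and Nrp2 were called in a comparison, and Emcn and Kdr were not. Erg and Ets1 are ETS factors, whose core GGAAG was searched on both strands and stands in capitals, as GGAAG or as CTTCC where it lies on the opposite strand. The sequences are from RefSeq on GRCm38.p6, in which 25 of the 40 genes matched, with 33 promoters, and Tmem100 did not. Each is given 5′ to 3′ on the strand of its gene, at chr2:119325534-119325833 (plus), chr3:137340828-137341127 (plus), chr1:62703067-62703366 (plus) and chr5:75978406-75978705 (minus).
Dll4: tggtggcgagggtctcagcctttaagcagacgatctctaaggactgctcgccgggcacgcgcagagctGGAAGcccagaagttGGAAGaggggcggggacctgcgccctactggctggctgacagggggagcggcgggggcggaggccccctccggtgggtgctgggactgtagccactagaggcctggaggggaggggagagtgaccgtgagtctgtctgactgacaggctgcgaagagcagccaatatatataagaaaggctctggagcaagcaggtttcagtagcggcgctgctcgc
Emcn: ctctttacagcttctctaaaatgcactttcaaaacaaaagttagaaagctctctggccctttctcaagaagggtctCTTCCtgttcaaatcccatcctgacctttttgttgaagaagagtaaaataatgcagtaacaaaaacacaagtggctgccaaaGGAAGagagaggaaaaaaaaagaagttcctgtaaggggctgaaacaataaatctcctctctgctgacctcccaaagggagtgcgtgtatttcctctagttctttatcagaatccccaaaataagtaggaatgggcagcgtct
Nrp2: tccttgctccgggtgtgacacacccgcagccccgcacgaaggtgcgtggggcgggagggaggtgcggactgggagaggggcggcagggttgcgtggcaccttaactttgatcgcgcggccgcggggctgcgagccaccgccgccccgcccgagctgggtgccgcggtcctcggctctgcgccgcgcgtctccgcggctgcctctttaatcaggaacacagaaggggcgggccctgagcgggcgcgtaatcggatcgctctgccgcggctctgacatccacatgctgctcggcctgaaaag
Kdr: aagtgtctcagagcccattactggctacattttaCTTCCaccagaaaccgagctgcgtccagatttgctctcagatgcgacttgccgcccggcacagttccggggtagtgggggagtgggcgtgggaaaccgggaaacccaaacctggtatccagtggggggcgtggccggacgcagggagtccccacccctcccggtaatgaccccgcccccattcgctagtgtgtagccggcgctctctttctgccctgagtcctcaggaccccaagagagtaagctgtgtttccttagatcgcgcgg
Dll4 and Emcn held 2 such matches each, Kdr 1 and Nrp2 0. The core stood in 72.7% of the 33 promoters and in 71.4% of all 32851 promoters in the table. The hypoxia response core ACGTG was in 6.06% of the 33 promoters against 19.6% of all, and the SOX core ACAAT in 24.2% against 31.0%. These matches describe letters in the windows only.

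Other genes of the pathway were read from lists of angiogenesis promoters and inhibitors. The list of promoters and their receptors also holds Notch pathway genes such as Notch1, Hey1, Hey2 and Heyl. Since the Notch ligand DLL4 restrains sprouting, its median is not one of promoters alone. Of 24 genes of this list tested, none was called higher and 1 was called lower at Day 8, with a list median of -0.06. Of all genes, 1.53% were called higher and 1.42% lower. The called gene was Slit2, a guidance ligand, with a log2 fold change of -1.19 ± 0.49 (adjusted p = 0.96, edgeR), which was -0.47 without saline replicate 1 and was called in 8 of 14 alternatives. At Day 3, Bmpr2, a BMP receptor, was the only called gene of this list, at -1.20 ± 0.32 (adjusted p = 0.63, limma), and was no longer called without saline replicate 1, at -0.88. Figf, encoding the VEGFR3 ligand VEGFD, had 39.0 and 13.9 CPM in saline, 9.56 and 15.5 CPM at Day 3, and 10.3, 39.3 and 46.9 CPM at Day 8, so its highest libraries were those in which Nrp2 was highest. The oxygen-sensing factors Hif1a and Epas1 ranged from 59.9 to 95.0 CPM and from 43.4 to 69.1 CPM, with overlap between saline and Day 8.

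Of 12 inhibitors, 2 were called lower and 1 higher at Day 8, where 1.42% of all genes were called lower and 1.53% higher. Thbs1, encoding thrombospondin 1, which restrains endothelial growth through CD36 and CD47, had 77.3 and 41.2 CPM in saline, 15.8 and 26.5 CPM at Day 3, and 17.6, 17.5 and 17.4 CPM at Day 8. All CXCL12 libraries were below both saline-treated libraries, and the Day 8 libraries, replicate 1 included, were alike. The log2 fold change was -1.78 ± 0.33 at Day 8 (adjusted p = 0.96, edgeR) and -1.49 ± 0.39 at Day 3 (adjusted p = 0.63, limma). At Day 8 it was called in all 14 alternatives, from -1.26 without saline replicate 1 to -2.16 without saline replicate 2, while the Day 3 call was lost without saline replicate 1, at -0.99, and without Day 3 replicate 1, at -1.13. Thbs2, encoding the related thrombospondin 2, had 29.5 and 9.86 CPM in saline and 4.07 to 6.45 CPM in the CXCL12 libraries, with log2 fold changes of -2.0 ± 0.52 at Day 8 (adjusted p = 0.96, edgeR) and -1.60 ± 0.57 at Day 3 (adjusted p = 0.63, limma). Without saline replicate 1 both Thbs2 calls were lost, at -1.0 and -0.78, and without Day 3 replicate 1 the Day 3 call was lost, at -1.34. Adamts1, encoding a protease that inhibits angiogenesis and is progesterone-responsive, had 54.6 and 91.0 CPM in saline, 94.9 and 97.4 CPM at Day 3, and 123, 182 and 212 CPM at Day 8. Its log2 fold change at Day 8 was 1.23 ± 0.37 (adjusted p = 0.96, edgeR), opposite in sign to the thrombospondins, and it was no longer called without saline replicate 1, at 0.91, or with the replicate number as a block, at 1.07.

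Among the 20 endothelial markers that are no members, none was called at Day 8 against saline, where their median was 0.35. Clec14a, an endothelial adhesion receptor, was called higher at Day 3, with 13.0 and 23.6 CPM in saline, 40.7 and 39.1 CPM at Day 3, and 23.4, 41.0 and 43.1 CPM at Day 8, and a log2 fold change of 1.14 ± 0.38 (adjusted p = 0.63, limma). This call was kept in 5 of 10 alternatives and lost without saline replicate 1, at 0.77, and without either Day 3 library. Sox17, an arterial SOX factor that uterine epithelium also makes, and Cldn5, encoding the tight junction protein claudin 5, were called higher at Day 8 than at Day 3, at 1.09 ± 0.30 (adjusted p = 0.67, limma) and 1.03 ± 0.43 (adjusted p = 0.7, limma). These calls were kept in 8 of 11 alternatives for Sox17 and 6 of 11 for Cldn5, which was at 0.64 without Day 3 replicate 2. Sox17 had 127, 78.9 and 160 CPM at Day 8, so here Day 8 replicate 1 was not the lowest.

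Markers of other tissues differed between libraries in patterns of their own. Mural cell markers, of the pericytes that wrap capillaries, summed to 255 and 139 CPM in saline, 159 and 204 CPM at Day 3, and 132, 202 and 245 CPM at Day 8. Adipocyte markers summed to 902 and 2563 CPM, 3112 and 348 CPM, and 280, 434 and 286 CPM. Of these, 7 of 9 were called lower at Day 8 against saline, where 1.42% of all genes were. Haemoglobin and other erythroid transcripts summed to 7506 and 14520 CPM in saline, 40320 and 23383 CPM at Day 3, and 16258, 26278 and 13943 CPM at Day 8. Ovary and oviduct markers were highest in Day 8 replicate 2, at 4320 CPM against 252 to 1534 CPM elsewhere. Progesterone-induced uterine genes such as Cyp26a1 and Il13ra2 centred on 2.95 in log2 fold change at Day 8. Of these, 4 of 9 were called higher, where 1.53% of all genes were. They summed to 117, 294 and 556 CPM in the Day 8 libraries against 52.6 to 143 CPM in the others. Day 8 replicates 2 and 3 were thus highest both in these genes and in the endothelial identity genes, and the part of progesterone-responsive expression, or of the other tissues, in the levels of the 40 genes was not tested.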

How the data were processed

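The 7 uterine QuantSeq libraries were analysed with groups and replicate numbers from the sample labels. Reads had been aligned with Bowtie2 by the authors, who counted alignments with Bedtools, multiple ones included, and normalized with the quantile method in edgeR; versions and annotation are not given in the sources used here, and the submitters' processing notes list the builds hg19 and mm10 with no role. For 6 libraries the authors deposited raw read counts per gene symbol. For Day 3 replicate 1 the deposited values are log2 of normalized counts; after a factor of 1.053 was divided out, 96.7% of 5945 low values lay within 0.1 of a whole number, where chance gives 20%, and its reads were estimated so.

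For Day 8 against saline, edgeR 4.0.16 was used (glmQLFTest, TMM, filterByExpr, 6 count libraries of 3 groups, common biological coefficient of variation 42.2%). Day 3 was compared with saline, and Day 8 with Day 3, by limma 3.58.1 with a trend on quantile-normalized log2(normalized count + 1) of all 7 libraries, with a mean log2 value of at least 2; this scale understates changes of low genes. Standard errors of edgeR are the log2 fold change divided by the square root of F. Adjusted p-values are Benjamini-Hochberg over all genes tested. Libraries were called non-overlapping on log2 CPM at Day 8 against saline and on the limma values otherwise. Standard errors and SD take in the spread between libraries, while the floor of 3 reads covers counting error only. R 4.3.3, DESeq2 1.42.0, other normalizations and filters, a pseudocount of 0.5, Day 8 replicate 1 counted with Day 3, the replicate number as a block, estimated reads in edgeR and the omission of single libraries served as alternatives. The fits were tested on simulated data. Gene positions are from GENCODE M21 on GRCm38.

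The genes, their roles and all lists were chosen with earlier results of these data known. Fold changes are given for 9 angiogenesis genes that the study names for other assays (Pecam1, Cd34, Flt1, Kdr, Tie1, Tek, Angpt1, Angpt2, Vegfa). Of these, Vegfa is named in the study's text but not in the figure legend, and Kdr in the legend but not in the text. Fold changes are also given for genes past 2-fold and unadjusted P 0.05, and for called genes of the other lists. The 3 largest rises and 3 largest falls with a mean of at least 3 CPM in each comparison are included as well. Counts of genes with uncertain assignment could not be separated, since multiple alignments were counted.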

Additional observations from a re-analysis of the deposited data

Results flagged for a closer look

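Tmem100 differed between the CXCL12 groups in direction from the saline mean. On the quantile-normalized log2 scale, its Day 3 libraries lay 0.75 and 0.59 below the saline mean, at -0.75 and -0.59, and its Day 8 libraries lay above it, at 0.17, 0.93 and 1.06. Day 8 replicate 1, at 10.23, lay between the saline-treated libraries, at 10.41 and 9.70. The Day 8 log2 fold change against saline was 0.80 ± 0.37 (adjusted p = 0.96, edgeR), not called. At Day 3 it was -0.67 ± 0.36 (adjusted p = 0.63, limma), also not called. The difference itself, Day 8 minus Day 3, was 1.39 (adjusted p = 0.66, limma), with all 3 Day 8 libraries above both Day 3 libraries. The adjusted p does not pass 0.1. The groups share the saline-treated libraries, and no group of these data has 4 samples or more, so single libraries within a group were not examined for extreme values.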

How the results depend on the processing

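The direction of the median log2 fold change of the 40 genes was kept in every setting at Day 8 against saline and Day 8 against Day 3; at Day 3 against saline it was -0.53 with library-size scaling alone, and ran from -0.52 without saline replicate 2 to 0.03 without saline replicate 1. The ranges without single libraries were 0.10 to 0.47 and 0.11 to 0.73 for Day 8 against saline and against Day 3. The numbers of the 40 genes called ran from 0 to 5, 0 to 4 and 1 to 10 without single libraries (Day 8 against saline, Day 3 against saline, Day 8 against Day 3), the highest without Day 8 replicate 1, saline replicate 2 and Day 8 replicate 1, where 6.69%, 18.9% and 11.2% of all genes were called. Over all genes these ranges were 229 to 1527, 278 to 2902 and 306 to 1723 calls, the lowest without Day 8 replicate 3, saline replicate 1 and Day 3 replicate 1 and the highest without saline replicate 2, saline replicate 2 and Day 8 replicate 1. An adjusted p under 0.1 was reached over all genes by 15 genes at Day 8 against saline without Day 8 replicate 1 and 58 with it counted with Day 3 (edgeR), and by limma at Day 3 against saline by 37 with no filter and 2319 without saline replicate 2, and at Day 8 against Day 3 by 28 with no filter, 475 without Day 8 replicate 1 and 1355 with it counted with Day 3. At Day 8 against saline 2 genes were called with no filter on low counts and 4 with Day 8 replicate 1 counted with Day 3. At Day 3 against saline 2 were called with library-size scaling alone, 2 with estimated reads in edgeR and 0 with no filter. With Day 8 replicate 1 counted with Day 3, 11 were called at Day 8 against Day 3, 10 of them at an adjusted p under 0.1 by limma, with a median of 0.80. Library-size scaling moved the median of all genes at Day 3 to -0.26 and the calls over all genes from 306 higher and 404 lower to 117 and 968. Over all genes, calls at Day 8 against saline went from 453 to 1094 with Day 8 replicate 1 counted with Day 3, and at Day 8 against Day 3 from 726 to 1843. The causes were not tested.

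Some values changed sign. At Day 8 against saline Flt1 was 0.00 by DESeq2, 0.02 with no filter, 0.00 with at least 10 counts and 0.19 with Day 8 replicate 1 counted with Day 3, where Angpt2 was 0.22, and Tek was -0.03 by limma. At Day 3, Pecam1, Tie1 and Vegfa were -0.03, -0.24 and -0.02 with library-size scaling, Pecam1 and Tie1 -0.01 and -0.10 with Day 8 replicate 1 counted with Day 3, and Tie1 -0.03 with estimated reads. At Day 8 against Day 3, Cd34, Kdr, Vegfa, Plvap and Icam2 were 0.24, 0.60, -0.02, 0.02 and 0.03 with that library counted with Day 3, and Kdr 0.03 with estimated reads. Without single libraries, values at Day 8 against saline ran from -0.31 to 0.38 for Flt1, -0.63 to 0.22 for Angpt2, -0.11 to 0.87 for Vegfa, -1.25 to 0.43 for Flt4, -1.05 to 0.37 for Nrp2, -0.10 to 0.41 for Angpt1 and -0.24 to 0.65 for Tek. At Day 3 they ran from -0.77 to 0.00 for Flt1, -0.25 to 0.70 for Vegfa, -0.22 to 0.58 for Pecam1 and -0.35 to 0.48 for Tie1, and at Day 8 against Day 3 from -0.04 to 0.34 for Vegfa, -0.19 to 0.11 for Cd34, -0.25 to 0.34 for Kdr, -0.12 to 0.74 for Angpt2 and -0.27 to 0.02 for Eng.

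Groups share replicate numbers, and the deviations of same-numbered libraries from their group means had correlations from -0.16 to 0. In a group of 2 libraries the deviations mirror each other, so these values cannot settle whether the numbers are pairs. The numbers were not taken as pairs in the main fits. With the replicate block, 0 of the 40 genes were called at Day 8 against saline, where Dll4 was 0.91 and Tek -0.24, and 157 genes were called over all instead of 453. At Day 8 against Day 3 the replicate block gave 0.80 for Dll4 and 0.02 for Eng, and 460 calls over all instead of 726. Nrp2 was no longer called at Day 3 with it.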

Other observations

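Among genes not described above, those induced by oestrogen in the uterus differed between the CXCL12 days. Of 7 such genes tested, 5 were called lower at Day 8 than at Day 3 by limma and none higher, with a median log2 fold change of -1.80. Of all genes, 2.40% were called lower in this comparison. Sprr2f, a cornified envelope protein of the luminal epithelium, was at -5.23 ± 1.24 (adjusted p = 0.66, limma), and Lcn2, encoding lipocalin 2, at -3.83 ± 1.33 (adjusted p = 0.7, limma). The list summed to 1021 and 904 CPM in saline, 1687 and 1473 CPM at Day 3, and 922, 292 and 427 CPM at Day 8, so Day 8 replicate 1 lay with the saline-treated libraries and the other Day 8 libraries were the lowest. General uterine markers such as Pgr, Hoxa10 and Myh11 centred on a log2 fold change of 0.39 at Day 8 and -0.17 at Day 3 against saline, and 0 of 10 were called in any comparison.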
